A study of Rattus norvegicus with 15 samples.

Results

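Removal of the ovaries was compared with sham surgery in rat femur, in 6 libraries of polyadenylated RNA out of 15 libraries in the series: OVX 1, 2 and 3 and Sham 1, 2 and 3. They were chosen by their titles, without use of any measured value. The animals were female Sprague-Dawley rats, 8 weeks old at the start. In the OVX group both ovaries were removed; in the Sham group fat tissue of the same amount was taken out instead. Rats recovered for 6 weeks, and the femurs were taken after 8 further weeks, in which both groups were labelled as given saline; the other 9 libraries came from ovariectomized rats given plant extracts. All rats had pentobarbital for the surgery, then penicillin into the leg muscle and erythromycin ointment on the wound. The labels name neither the part of the femur nor whether each library is a separate rat, so p-values here measure the spread between these libraries.

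Estrogen restrains bone resorption, and its loss after ovariectomy is the usual rodent model of postmenopausal bone loss: osteoclasts, which dissolve bone, outpace osteoblasts, which build it, and osteocytes buried in the bone signal to both. A rat femur also holds blood-forming marrow, fat cells, vessels, growth plate and joint cartilage, and attached tendon and muscle can be sampled with it. In RNA of the whole tissue, fewer cells of a type and less RNA per cell cannot be told apart.

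Levels are given as FPKM, fragments per kilobase of gene scaled to the size of the library. Depth inferred from the values was 40667551, 42808623 and 41102542 reads in OVX 1, 2 and 3, and 49281081, 34684697 and 34350787 reads in Sham 1, 2 and 3. Pearson correlations of log2(FPKM + 1) over the tested genes were 0.96 to 0.97 within OVX, 0.89 to 0.94 within Sham and 0.57 to 0.71 between the groups. The bone genes Col1a1 and Bglap, the red cell gene Slc4a1, the fat gene Adipoq and the endothelial gene Pecam1 were above 1 FPKM in all 6 libraries; the osteocyte gene Sost was under 1 FPKM in Sham 1 and 2, the cartilage genes Col2a1 and Acan were under it in all OVX libraries, and the cartilage gene Matn3 was under it in all 6. Sham 3 stood apart from Sham 1 and 2: the bone cell genes Sost, Bglap, Ctsk and Acp5 were far higher in it and genes of skeletal muscle were lower. Mitochondrial genes made up 12.0%, 12.2% and 14.1% of the FPKM in OVX 1, 2 and 3, and 23.8%, 22.4% and 14.2% in Sham 1, 2 and 3. Globin genes made up 8.25%, 7.59% and 6.22% in OVX 1, 2 and 3, against 0.20%, 0.084% and 0.53% in Sham 1, 2 and 3, so the groups did not overlap (exact permutation test, two-sided, p = 0.1, the smallest that 3 against 3 libraries allow).

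Across the genome, genes of blood-forming cells were higher in OVX femurs and genes of cartilage, connective tissue and vessels were lower. Of 14263 genes that averaged 1 FPKM or more over the 6 libraries, 3895 (27.3%) were higher and 4298 (30.1%) were lower in OVX, 57.4% together, at an adjusted p under 0.05 in limma, a linear model test fitted to all tested genes on log2(FPKM + 1) with Benjamini-Hochberg adjustment. A gene that meets this threshold is said below to have passed, and fold changes are log2 values of OVX minus Sham on this scale, with the standard error (SE) of the fit. The groups did not overlap for 66.8% of tested genes, 31.9% with OVX higher and 35% with OVX lower. Without Sham 3, 29.9% of 14183 tested genes passed as higher and 29.3% as lower, the shares beside which counts without it are to be read. Library values are given in the order 1, 2 and 3, and the groups did not overlap in any gene below that passed and whose 6 values are given. The median fold change of all tested genes was -0.04. Rescaling to TPM, in which every library has the same total, moved it by -0.10, and leaving out mitochondrial and globin genes moved it by -0.10, so shifts of this size in a list are within the choice of scale. Medians of single lists could move by more. That of the cartilage list, -4.70, was -5.76 in TPM and -7.17 with 0.1 in place of 1 added to the FPKM. With 0.1 added, that of the mast cell, basophil and eosinophil list went from 1.93 to 3.09. The size of such a fold change therefore depends on the scale. FPKM are relative to the library total and the tissue types move together, so the part of tissue make-up in each result below was not tested.

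Extremes were taken among genes with a symbol that passed, averaged 10 FPKM or more and did not overlap between the groups. The 15 with the highest fold changes were all of blood-forming lineages. Among them were the neutrophil defensins Defa5 (8.74 ± 0.34), Np4 (8.60 ± 0.29), RatNP-3b (8.57 ± 0.51) and Defa5-ps2 (7.38 ± 0.29), the platelet chemokine Ppbp (7.10 ± 0.79) and the neutrophil peptide Camp (6.12 ± 0.55). Red cell genes among them were Ahsp (7.01 ± 0.45), Slc4a1 (6.79 ± 0.37), Car1 (6.66 ± 0.66), Hemgn (6.38 ± 0.49), Rhag (6.12 ± 0.31) and Kel (6.06 ± 0.36). The defensin Defa11, also among them, had FPKM of 86.3, 82.3 and 64.5 in OVX 1, 2 and 3 and was listed at 0 in the 3 Sham libraries. The 15 lowest were mostly genes of cartilage and joint: Clec3a (-11.28 ± 0.20), Prg4 (-10.10 ± 0.61), Cytl1 (-9.68 ± 0.42), Chad (-9.61 ± 0.31), Ecrg4 (-9.34 ± 0.38), Cilp (-8.63 ± 0.46), Col10a1 (-8.55 ± 0.49), Ucma (-8.24 ± 0.40), Acan (-8.24 ± 0.36), Htra4 (-8.10 ± 0.55), Comp (-7.86 ± 0.36), Col2a1 (-7.61 ± 0.18), Fmod (-6.97 ± 0.43), PCOLCE2 (-6.92 ± 0.33) and the B cell chemokine Cxcl13 (-6.76 ± 0.54).

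**Figure D1:**
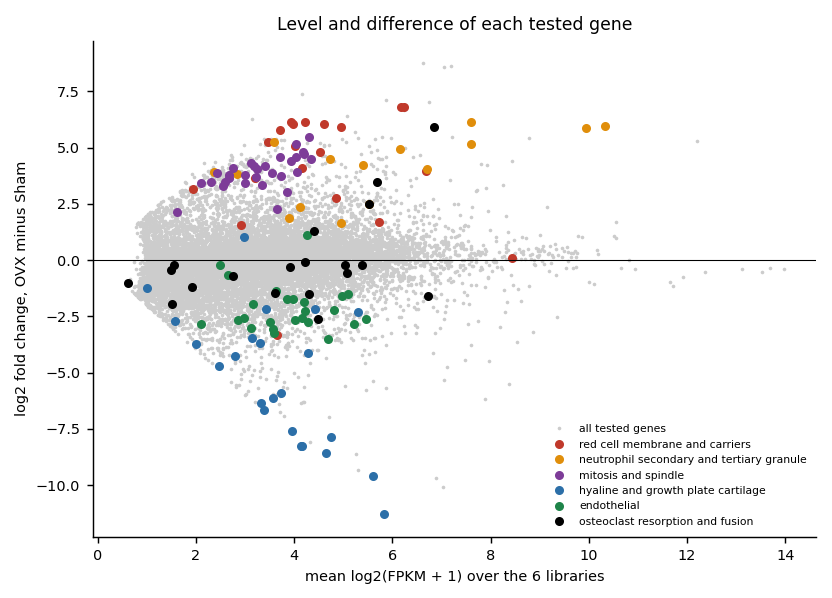
Each point is 1 of the 14263 tested genes, with its mean log2(FPKM + 1) over the 6 libraries on the x axis and its log2 fold change, OVX minus Sham, on the y axis; 6 gene lists are coloured. Red cell, neutrophil granule and mitosis genes lie mostly above 0, cartilage and endothelial genes mostly below it, and osteoclast genes on both sides.

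**Figure D2:**
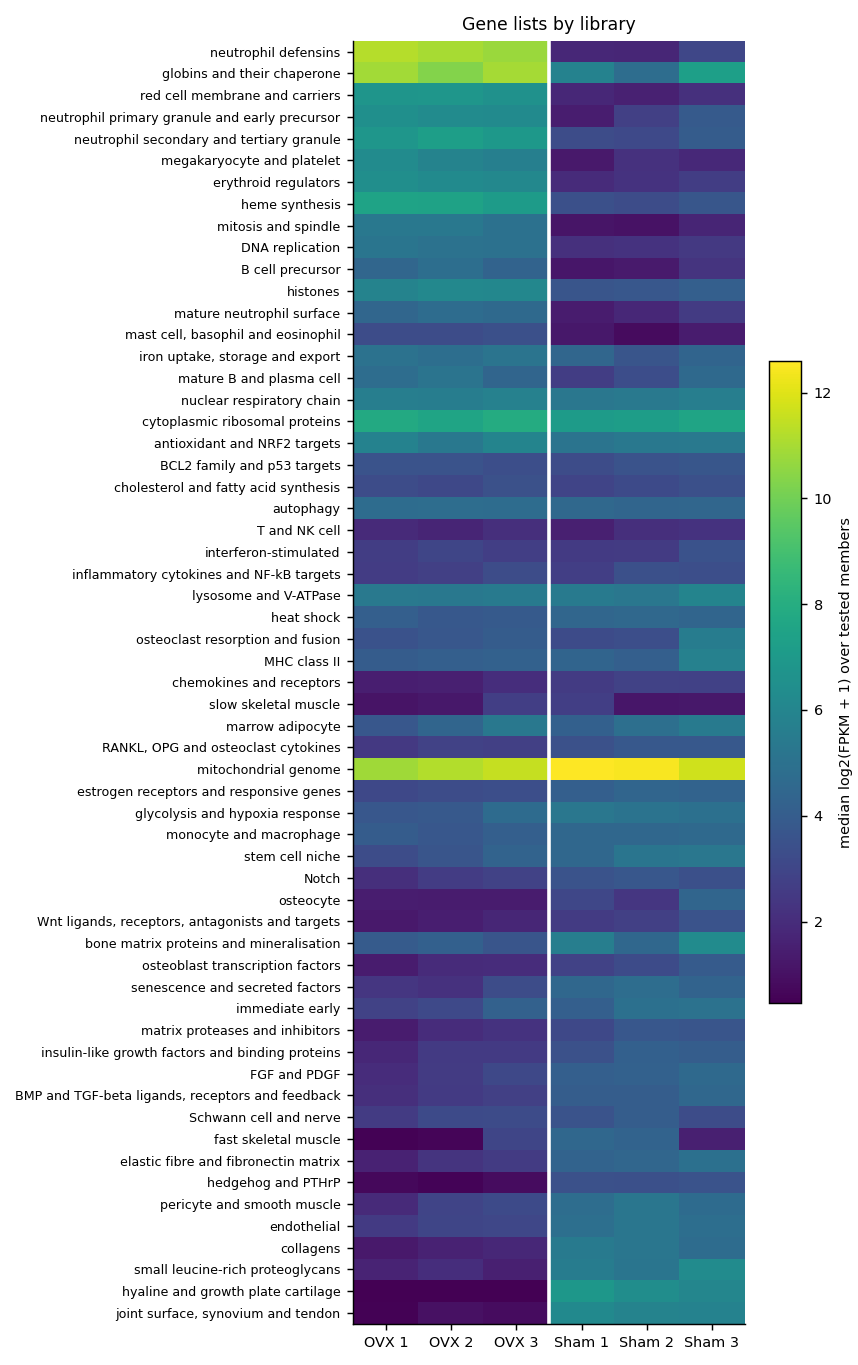
Median log2(FPKM + 1) of the tested members of 59 gene lists (rows, ordered by their median fold change) in OVX 1, 2 and 3 (left of the white line) and Sham 1, 2 and 3 (right), with the colour bar giving the level. The red cell, neutrophil and platelet lists are higher in all OVX libraries and the cartilage and joint lists in all Sham libraries, while the osteoclast, osteocyte and bone matrix lists are highest in Sham 3.

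Red cell genes were higher in OVX, from the erythropoietin receptor to heme, globin and the membrane. Red cells arise in the marrow from precursors that respond to erythropoietin, load iron, make heme and globin, and build a spectrin skeleton under the membrane. Slc4a1, the anion exchanger of the red cell membrane, had FPKM of 822, 892 and 686 in OVX 1, 2 and 3, against 5.66, 3.43 and 11.7 in Sham 1, 2 and 3 (6.79 ± 0.37, limma adjusted p = 3.68e-05). All OVX libraries were above all Sham libraries, and Sham 3 was the highest of the Sham group. Of 20 tested genes of the red cell membrane and its carriers, 18 rose and 1 fell (median fold change 4.93), beside 27.3% of all tested genes higher and 30.1% lower. The spectrin gene Sptb (4.81 ± 0.12), the ankyrin gene Ank1 (5.06 ± 0.13), the adducin gene Add2 (5.24 ± 0.27) and the blood group genes Rhd (5.93 ± 0.39) and Ermap (6.03 ± 0.26) rose, all without overlap between the groups. The glucose transporter Slc2a1, made in many tissues, fell (-3.31 ± 0.28), with FPKM of 2.69, 2.75 and 3.56 in OVX 1, 2 and 3 and 60.1, 33.0 and 28.6 in Sham 1, 2 and 3. The water channel Aqp1, also a gene of endothelium, did not pass (0.11 ± 0.25).

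All 12 heme synthesis and transport genes rose (median 3.88). Alas2, the erythroid enzyme of the first step, had FPKM of 1072, 1132 and 781 in OVX 1, 2 and 3, against 21.2, 9.51 and 46.8 in Sham 1, 2 and 3 (5.46 ± 0.52, limma adjusted p = 0.000249). Of the later enzymes, in the order of the pathway, these rose by 3.70 ± 0.15 (Alad), 3.48 ± 0.17 (Uros), 3.11 ± 0.14 (Urod), 4.03 ± 0.22 (Cpox), 2.03 ± 0.20 (Ppox) and 4.18 ± 0.19 (Fech, which inserts the iron). The mitochondrial iron importer Slc25a37 rose as well (4.52 ± 0.11). The 5 tested members of the globin list, the chaperone Ahsp included, rose (median 5.28); single globin copies share reads, and their separate values are uncertain. Among 13 tested iron genes 8 rose and 1 fell, or 2 fell without Sham 1. The transferrin receptors Tfrc (3.57 ± 0.45) and Tfr2 (3.66 ± 0.23), transferrin itself (Tf, 3.56 ± 0.20) and the iron exporter Slc40a1 (1.77 ± 0.44) rose. Ferritin heavy chain Fth1 did not pass (-0.34 ± 0.21), and the heme scavenger Hpx fell (-1.20 ± 0.18).

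All 13 erythroid regulators rose (median 4.14). Gata1, the transcription factor of red cell and megakaryocyte precursors, had FPKM of 96.0, 80.0 and 76.6 in OVX 1, 2 and 3, against 0.827, 0.804 and 1.75 in Sham 1, 2 and 3 (5.35 ± 0.20). Klf1 (5.52 ± 0.25), Tal1 (4.14 ± 0.21) and the erythropoietin receptor Epor (3.76 ± 0.27) rose too. Ldb1 (0.83 ± 0.11) and Lmo2 (0.79 ± 0.15), parts of the same transcription complex that are also made in other blood cells and endothelium, rose by less. The GATA motif AGATAA, on either strand, was searched in the 250 bases before the start of each gene in RefSeq's promoter table (assembly GRCr8). It occurred in 10.3% of all 33469 promoters, in 2 of 9 heme synthesis genes with an entry, in 2 of 10 erythroid regulators and in 6 of 16 megakaryocyte and platelet genes. The promoters of Alas2 (chrX:22895200-22895449, plus strand) and Epor (chr8:28770323-28770572, minus strand) are shown because these genes open heme synthesis and erythropoietin signalling, rose, and hold a match; capitals mark the motif, which lies on the opposite strand in Epor.
Alas2: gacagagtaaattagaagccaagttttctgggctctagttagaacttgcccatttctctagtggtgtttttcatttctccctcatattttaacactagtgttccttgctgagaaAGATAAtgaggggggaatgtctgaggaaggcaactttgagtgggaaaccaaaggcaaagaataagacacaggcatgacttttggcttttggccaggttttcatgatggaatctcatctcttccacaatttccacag
Epor: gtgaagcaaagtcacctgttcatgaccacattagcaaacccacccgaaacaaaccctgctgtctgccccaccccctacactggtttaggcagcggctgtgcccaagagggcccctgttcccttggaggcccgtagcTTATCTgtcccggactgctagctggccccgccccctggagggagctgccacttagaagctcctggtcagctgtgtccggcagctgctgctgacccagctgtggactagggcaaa

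Neutrophil genes were higher in OVX from the earliest granules to the surface of mature cells. Neutrophils fill their granules in sequence as they mature in the marrow, so the granule proteins mark stages. Mpo, myeloperoxidase of the primary granules, had FPKM of 435, 417 and 371 in OVX 1, 2 and 3, against 2.79, 8.84 and 23.1 in Sham 1, 2 and 3 (5.40 ± 0.61, limma adjusted p = 0.000501). Of 10 genes of primary granules and early precursors, 9 rose (median 4.43), among them the serine proteases Elane (5.40 ± 0.64), Ctsg (5.39 ± 0.59) and Prtn3 (4.89 ± 0.41) and the maturation factor Cebpe (3.97 ± 0.13). Ctsc, which activates these proteases and is made in many cell types, did not pass (0.29 ± 0.20) but rose without Sham 3 (0.49). All 5 tested defensins rose; they are close copies of one another, and single values are uncertain.

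Of 15 genes of the later granules, 14 rose (median 4.22). S100a8, a chain of calprotectin, had FPKM of 9564, 9576 and 11206 in OVX 1, 2 and 3, against 136, 120.4 and 265 in Sham 1, 2 and 3 (5.94 ± 0.33). Cd177 (5.24 ± 0.20), Lcn2 (4.07 ± 0.13) and Pglyrp1 (4.22 ± 0.13) rose with S100a9 (5.87 ± 0.37). The gelatinase Mmp9 did not pass (2.47 ± 1.41): it had FPKM of 84.6, 125 and 119 in OVX 1, 2 and 3 and 5.32, 4.20 and 229.8 in Sham 1, 2 and 3. Mmp9 is also an osteoclast enzyme, and Sham 3, the library highest in Ctsk and Acp5, was above the OVX libraries; without it Mmp9 rose (4.25). Ltf, lactoferrin, was under 1 FPKM in all libraries. All 10 surface genes of mature neutrophils rose (median 2.48), including the chemotactic receptors Fpr1 (3.97 ± 0.18) and Cxcr2 (3.58 ± 0.25) and the growth factor receptor Csf3r (3.49 ± 0.24).

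All 21 tested megakaryocyte and platelet genes rose in OVX (median 4.16). Among them, Itgb3 did not pass without any one library other than Sham 3, and Vwf did not pass without OVX 1. Megakaryocytes are the giant marrow cells that shed platelets. Pf4, a chemokine stored in platelet granules, had FPKM of 1268, 837 and 881 in OVX 1, 2 and 3, against 43.1, 43.4 and 65.8 in Sham 1, 2 and 3 (4.27 ± 0.24, limma adjusted p = 3.94e-05). The adhesion receptors Gp1ba (4.16 ± 0.21), Gp5 (5.10 ± 0.29) and Gp6 (4.70 ± 0.30) and the integrin chain Itga2b (5.19 ± 0.36) rose. OVX 1 had the highest level of each of Pf4, Gp1ba, Gp5, Gp6 and Itga2b among the 6 libraries. Of 13 tested mast cell, basophil and eosinophil genes, 11 rose and none fell (median 1.93; 1 fell without Sham 1). The eosinophil granule protein Prg2 had FPKM of 136, 125 and 163 in OVX 1, 2 and 3, against 8.72, 0.479 and 4.29 in Sham 1, 2 and 3 (5.06 ± 0.64), and the IgE receptor chain Ms4a2 rose by 4.37 ± 0.17.

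B cell precursor genes were higher in OVX, while most T and NK cell genes did not pass. Early B cells form in the marrow, rearrange their receptor genes with Rag1 and Rag2 and carry a surrogate light chain before the mature receptor. Of 17 tested genes of B cell precursors 15 rose (median 2.51). Igll1, a part of the surrogate light chain, had FPKM of 36.2, 56.8 and 33.4 in OVX 1, 2 and 3, against 0.172, 0.580 and 2.47 in Sham 1, 2 and 3 (4.50 ± 0.42). Dntt (3.44 ± 0.41), Rag1 (3.11 ± 0.46), Rag2 (2.01 ± 0.19) and the B lineage factor Pax5 (2.51 ± 0.36) rose, and Ebf1, also made by marrow stroma and fat cells, did not pass (-0.02 ± 0.15). In each of these genes that rose, Sham 3 was the highest Sham library.

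Of 16 tested mature B and plasma cell genes 7 rose and 2 fell (median 0.66); 4 fell without Sham 1, and 1 fell without OVX 1, OVX 2 or Sham 2. Spib (3.60 ± 0.62) and Blk (2.78 ± 0.39) rose, and the plasma cell surface proteoglycan Sdc1, which other tissues share, fell (-1.84 ± 0.50) but did not pass without OVX 1, OVX 2 or Sham 2. The antibody joining chain Jchain did not pass (0.24 ± 0.83), with FPKM of 669, 921 and 606 in OVX 1, 2 and 3 and 149.9, 1041 and 1456 in Sham 1, 2 and 3. Among 16 tested T and NK cell genes 3 rose and none fell, while 3 fell when Sham 1 was left out. The T cell receptor chain Cd3e had FPKM of 2.51, 2.10 and 2.75 in OVX 1, 2 and 3 and 1.72, 3.39 and 5.20 in Sham 1, 2 and 3, overlapping ranges (-0.29 ± 0.30). The 3 that rose were Nkg7 (3.55 ± 0.35), Ncr1 (2.37 ± 0.16) and Gata3 (1.06 ± 0.18), genes of NK cells and innate or helper lymphocytes. Other genes of NK and cytotoxic cells in the list did not pass: Klrd1 (-0.37 ± 0.27), Prf1 (-0.37 ± 0.24) and Tbx21 (-0.16 ± 0.15). The median of the T and NK list was -0.01, and 0.03 with median-ratio scaling and 0.01 with a pseudocount of 0.1.

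**Figure D3:**
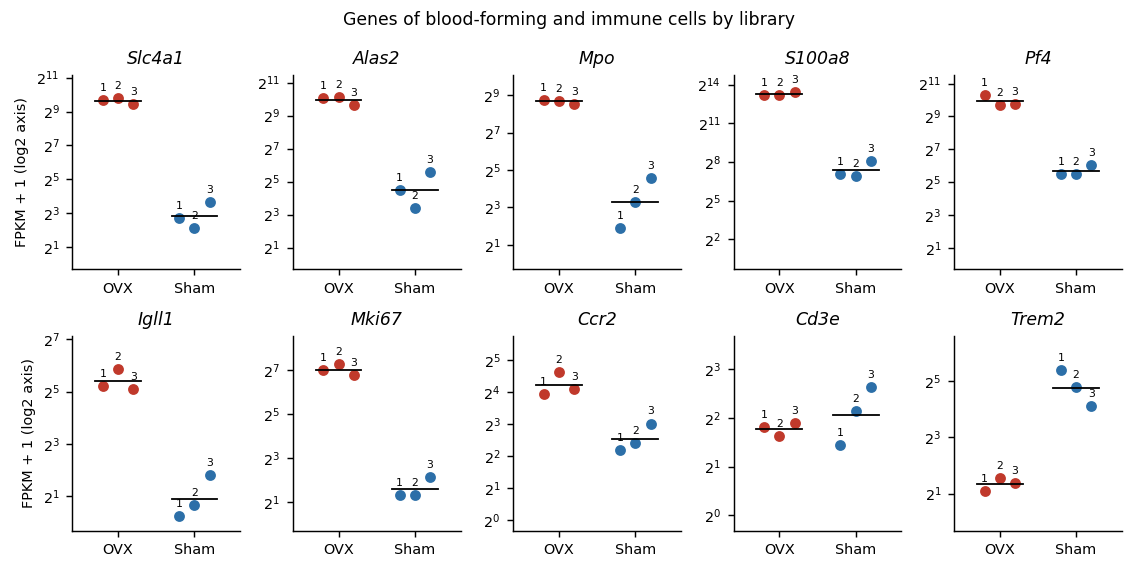
FPKM + 1 of 10 genes on a log2 axis in OVX 1, 2 and 3 (red) and Sham 1, 2 and 3 (blue); the number above a point is the library and the bar is the mean of the group on the log scale. Slc4a1, Alas2, Mpo, S100a8, Pf4, Igll1, Mki67 and Ccr2 lie higher in OVX without overlap, Cd3e overlaps, and Trem2 lies lower in OVX.

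Monocyte and macrophage genes moved in both directions, as did all tested genes (27.3% higher and 30.1% lower). Of 20 tested monocyte and macrophage genes 3 rose and 7 fell (median -0.72). The monocyte receptor Ccr2 (1.68 ± 0.27), lysozyme Lyz2 (1.67 ± 0.26) and the lineage factor Spi1 (1.32 ± 0.33) rose, Spi1 not without OVX 2. Of the genes known from tissue macrophages some fell and others did not pass. The lipid receptor Trem2 had FPKM of 1.13, 1.94 and 1.62 in OVX 1, 2 and 3, against 41.2, 26.7 and 16.2 in Sham 1, 2 and 3 (-3.42 ± 0.33, limma adjusted p = 0.00025), and Vsig4, a complement receptor, had 1.72, 2.36 and 1.76 in OVX 1, 2 and 3, against 154, 74.7 and 7.62 in Sham 1, 2 and 3 (-3.99 ± 0.99). In Sham, both were lowest in Sham 3. Cx3cr1 (-1.68 ± 0.17), Msr1 (-1.73 ± 0.20), Mertk (-1.20 ± 0.22), Mrc1 (-0.93 ± 0.23; not without OVX 2) and Cd14 (-1.99 ± 0.39) fell. The scavenger receptor Cd163 (0.16 ± 0.32), Adgre1 (-0.13 ± 0.46), the complement chains C1qa (-0.32 ± 0.25), C1qb (-0.74 ± 0.35) and C1qc (-0.70 ± 0.26), Siglec1 (-0.80 ± 0.33), Cd68 (-0.36 ± 0.37) and Aif1 (0.46 ± 0.20) did not pass. Without OVX 1, C1qb (-1.05), C1qc (-0.93) and Siglec1 (-1.13) fell, and without Sham 3 Aif1 rose (0.65). Csf1r, the receptor that macrophages and osteoclast precursors need, did not pass (-1.13 ± 0.45), with FPKM of 17.7, 18.4 and 16.7 in OVX 1, 2 and 3 and 25.5, 27.8 and 87.9 in Sham 1, 2 and 3; it fell without Sham 1 (-1.44) or Sham 3 (-0.57).

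MHC class II genes present antigen to T cells. Of 11 tested, RT1-Db2 rose and RT1-Da fell (median -0.55). RT1-Db2 had FPKM of 16.8, 16.7 and 18.0 in OVX 1, 2 and 3, against 2.99, 3.21 and 4.11 in Sham 1, 2 and 3 (2.04 ± 0.13). RT1-Db1 went the other way and did not pass (-1.07 ± 0.46). Whether reads of RT1-Db1 and RT1-Db2 were told apart was not tested. RT1-Da had FPKM of 19.2, 18.7 and 25.4 in OVX 1, 2 and 3, against 41.8, 40.7 and 131 in Sham 1, 2 and 3 (-1.49 ± 0.45). In all but RT1-Db2, Sham 3 was the highest of the 6 libraries. Without Sham 3, 2 rose and 5 fell; without Sham 1, 4 fell; without OVX 1 or OVX 2, neither RT1-Da nor another fell. The fold change of RT1-Da was -0.95 without Sham 3. The invariant chain Cd74 did not pass (-1.12 ± 0.40), with 129, 135 and 157 in OVX 1, 2 and 3 and 207, 230.4 and 599.7 in Sham 1, 2 and 3, but fell without Sham 1 (-1.40) or Sham 3 (-0.64).

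Cytokine and chemokine genes moved in both directions, as did all tested genes (27.3% higher and 30.1% lower). The chemokine counts below are near these shares. Of 20 tested inflammatory genes 4 rose and 9 fell. The interleukin 1 antagonist Il1rn had FPKM of 15.9, 22.1 and 15.4 in OVX 1, 2 and 3, against 2.74, 3.06 and 6.00 in Sham 1, 2 and 3 (1.97 ± 0.27). Il1b (1.78 ± 0.42) and Nos2 (1.54 ± 0.31) rose, and Il1a, at 1.46, 1.87 and 3.17 FPKM in OVX 1, 2 and 3, was listed at 0 in the 3 Sham libraries. The endothelial adhesion genes Sele (-2.18 ± 0.27) and Icam1 (-1.66 ± 0.23), Socs3 (-2.10 ± 0.44) and the hyaluronan-binding Tnfaip6 (-3.30 ± 0.57) fell. Tnf and Il6, often cited for bone loss after ovariectomy, were under a mean of 1 FPKM and were not tested. Among 30 tested chemokine and receptor genes 7 rose, such as Cxcr4 (3.00 ± 0.13) of blood cells and Ccl6 (2.50 ± 0.39), and 10 fell, such as the scavenging receptors Ackr2 (-2.94 ± 0.23) and Ackr3 (-3.31 ± 0.14) and the ligand Cxcl16 (-2.54 ± 0.17). Cxcl13, which attracts B cells, had FPKM of 0.452, 0.0860 and 0.269 in OVX 1, 2 and 3, against 279, 157 and 57.0 in Sham 1, 2 and 3 (-6.76 ± 0.54).

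Of 24 tested interferon-stimulated genes 6 rose and 4 fell, beside 27.3% of all tested genes higher and 30.1% lower. In this list 2 or 3 rose when OVX 1, OVX 2, Sham 1 or Sham 2 was left out, and 7 fell without Sham 1. Rsad2, the antiviral viperin, had FPKM of 117, 218 and 111 in OVX 1, 2 and 3, against 3.13, 1.68 and 5.61 in Sham 1, 2 and 3 (5.09 ± 0.39). Ifi44 (-1.48 ± 0.13) and Ifi27 (-1.50 ± 0.19) fell, and the RNA sensor Ifih1 did not pass (0.19 ± 0.16).

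Genes of cell division were higher in OVX. All 30 tested genes of mitosis and the spindle rose (median 3.87), and so did 34 of 35 entries of DNA replication (median 2.53). Mki67, a marker of cycling cells, had FPKM of 131, 155 and 108 in OVX 1, 2 and 3, against 1.50, 1.46 and 3.38 in Sham 1, 2 and 3 (5.45 ± 0.26, limma adjusted p = 2.71e-05). The cyclin-dependent kinase Cdk1 had 111, 94.0 and 81.0 in OVX 1, 2 and 3, against 2.96, 2.51 and 4.66 in Sham 1, 2 and 3 (4.48 ± 0.21). In S phase, the thymidine kinase Tk1 (4.64 ± 0.20), the licensing factors Cdc6 (4.19 ± 0.14) and Cdt1 (4.01 ± 0.22), the helicase chain Mcm5 (4.15 ± 0.30) and the clamp Pcna (2.35 ± 0.13) rose. The entry that fell was 1 of 2 gene entries that share the name Cdc45, of which the other rose, so this name is uncertain. Of 12 tested histone genes 9 rose (median 2.50), with the centromere histone Cenpa at 3.65 ± 0.14 and H2ax at 3.26 ± 0.22; polyadenylated RNA holds only part of the replication histone messages.

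The cell cycle motif TTTGAA (the CHR element) and CCAAT were searched on both strands of the same 250-base windows. TTTGAA occurred in 12 of 26 mitosis genes with an entry and in 16.2% of all promoters, and CCAAT in 18 of 26 and in 34.0%. Among 28 DNA replication genes with an entry, 2 had TTTGAA and 16 had CCAAT. The promoters of Cdk1 (chr20:19265043-19265292, plus strand) and of the mitotic cyclin Ccnb1 (chr2:33655226-33655475, minus strand) are shown because both genes rose and they differ in these motifs: capitals mark TTTGAA and CCAAT or its complement ATTGG, and TTTGAA is not in the Ccnb1 window. A match is a description of letters and not a site.
Cdk1: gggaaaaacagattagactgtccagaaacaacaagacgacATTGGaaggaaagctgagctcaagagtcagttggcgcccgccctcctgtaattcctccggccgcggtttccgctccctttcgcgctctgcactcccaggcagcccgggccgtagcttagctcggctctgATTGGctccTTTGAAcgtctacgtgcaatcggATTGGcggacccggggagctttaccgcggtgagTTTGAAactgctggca
Ccnb1: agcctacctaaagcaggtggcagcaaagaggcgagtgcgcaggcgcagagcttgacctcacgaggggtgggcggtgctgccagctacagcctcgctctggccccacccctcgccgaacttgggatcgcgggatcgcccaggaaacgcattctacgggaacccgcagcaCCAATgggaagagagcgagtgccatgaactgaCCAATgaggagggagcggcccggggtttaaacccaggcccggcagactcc

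Most genes of the stem cell niche that passed were lower in OVX. The niche is the set of stromal and vascular cells that hold and feed blood stem cells. Of 19 tested genes 3 rose and 10 fell (median -0.85); 5 rose without Sham 3. Those that rose are known from blood cells: Cxcr4, at FPKM of 138, 137 and 159 in OVX 1, 2 and 3, against 14.6, 19.0 and 18.3 in Sham 1, 2 and 3 (3.00 ± 0.13), Itga4 (1.57 ± 0.29) and Flt3 (1.06 ± 0.26). The stromal Pdgfra (-3.23 ± 0.20) and Pdgfrb (-2.37 ± 0.30), the vascular Tek (-2.56 ± 0.25) and the stem cell factor Kitlg (-1.19 ± 0.24) fell. Cxcl12, the retention signal made by reticular stroma, did not pass (-0.38 ± 0.63), with FPKM of 182, 274 and 368 in OVX 1, 2 and 3 and 137, 373 and 783 in Sham 1, 2 and 3. The leptin receptor Lepr, a marker of the same stroma, did not pass either (-0.85 ± 0.72), but fell without Sham 1 (-1.64).

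Bone cell genes differed in how they varied within Sham: Bglap, Sost, Ctsk and Acp5 were far higher in Sham 3 than in Sham 1 and 2 and did not pass, while others, such as Dlx3 and Pdpn, were lower in Sham 3 than in Sham 1 and 2 and fell in OVX. Of 14 osteoblast transcription factors 8 fell and none rose (median -1.24). Runx2, the master regulator, did not pass (-0.79 ± 0.47), with FPKM of 5.74, 6.46 and 7.74 in OVX 1, 2 and 3 and 8.04, 7.60 and 27.9 in Sham 1, 2 and 3. Sp7, which acts after it, did not pass (-1.01 ± 0.67), with 1.55, 2.71 and 1.40 in OVX 1, 2 and 3 and 2.66, 1.86 and 16.6 in Sham 1, 2 and 3. Dlx3 fell by the most, with 0.337, 0.659 and 0.185 FPKM in OVX 1, 2 and 3, against 22.6, 25.0 and 14.0 in Sham 1, 2 and 3 (-3.92 ± 0.25), and Foxo1 (-1.60 ± 0.18), Creb3l1 (-1.51 ± 0.25) and Twist1 (-1.63 ± 0.36) fell.

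Of 22 bone matrix and mineralisation genes 7 fell and 1 rose (median -1.14), beside 30.1% of all tested genes lower and 27.3% higher. The share that fell is near that of all tested genes. Bglap, osteocalcin of mature osteoblasts, did not pass (0.08 ± 1.70): its FPKM was 173, 32.9 and 45.1 in OVX 1, 2 and 3 and 34.0, 6.43 and 881 in Sham 1, 2 and 3, so Sham 3 was above and Sham 2 below all OVX libraries. Col1a1, the main collagen of bone, had 164, 45.6 and 35.3 in OVX 1, 2 and 3 and 179.7, 118 and 448 in Sham 1, 2 and 3 and did not pass (-1.70 ± 0.70), but fell without OVX 1 (-2.37). The mineralisation genes Alpl (-1.39 ± 0.52), Ibsp (-0.15 ± 0.73) and Spp1 (-2.85 ± 1.18) did not pass. Alpl and Spp1 fell without Sham 2 (-1.76 and -3.87) or without Sham 3 (-0.75 and -1.45). Phospho1, which frees phosphate for mineral, rose, with FPKM of 15.6, 22.7 and 19.3 in OVX 1, 2 and 3, against 3.58, 3.28 and 6.76 in Sham 1, 2 and 3 (1.91 ± 0.26); red cell precursors are known in other work to express it too. The mineralisation inhibitors Mgp (-5.32 ± 0.53) and Enpp1 (-2.50 ± 0.22), Sparc (-3.18 ± 0.20), the collagen chaperone Serpinh1 (-2.52 ± 0.28) and the crosslinking enzyme Lox (-4.86 ± 0.51) fell, and these are also genes of cartilage and soft connective tissue.

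Of 17 tested osteocyte genes 5 fell and none rose (median -1.03), beside 30.1% of all tested genes lower and 27.3% higher. The share that fell is near that of all tested genes. Sost, the Wnt inhibitor of mature osteocytes, had FPKM of 33.2, 27.5 and 7.32 in OVX 1, 2 and 3 and 0.280, 0.432 and 313 in Sham 1, 2 and 3 and did not pass (1.27 ± 2.12). Sham 3 was the highest of the 6 libraries and Sham 1 and 2 the lowest, with the OVX libraries between them. Mepe (-0.51 ± 1.46), Dmp1 (-1.09 ± 1.11), Phex (-0.41 ± 0.86) and Fgf23 (-0.60 ± 0.86) gave the same order of Sham 3 above all OVX libraries and did not pass. Without Sham 3, Sost rose (3.89) and 5 of 14 tested osteocyte genes fell, beside 29.3% of all tested genes. With all libraries Pdpn (-2.90 ± 0.21), Ackr3 and Fbln7 (-4.86 ± 0.53) fell. Pdpn had 1.61, 1.30 and 2.02 in OVX 1, 2 and 3, against 20.3, 22.9 and 14.0 in Sham 1, 2 and 3 (-2.90 ± 0.21), without the rise in Sham 3.

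Osteoclast genes gave no single direction. Of 19 tested genes 3 rose and 5 fell (median -0.46), beside 27.3% of all tested genes higher and 30.1% lower. Neither share in the list was above that of all tested genes. Ctsk, the collagen-degrading protease of osteoclasts, had FPKM of 29.0, 110.0 and 64.7 in OVX 1, 2 and 3 and 65.8, 60.3 and 1494 in Sham 1, 2 and 3 and did not pass (-1.60 ± 1.27). Acp5, tartrate-resistant acid phosphatase, had 25.8, 52.1 and 38.9 in OVX 1, 2 and 3 and 14.5, 12.4 and 449 in Sham 1, 2 and 3 and did not pass (-0.24 ± 1.33). For Acp5 the OVX libraries were above Sham 1 and 2 and below Sham 3, and without Sham 3 it rose (1.42). Without Sham 3, 7 of 18 tested osteoclast genes rose and 4 fell, beside 29.9% and 29.3% of all tested genes. The list median became 0.09 without Sham 3. When any one of the other libraries was left out, 1 rose. The carbonic anhydrase Car2, shared with red cells, rose (5.92 ± 0.73), and the receptor gene Tnfrsf11a (-1.93 ± 0.44) and the fusion-stage transcription factor Nfatc1 (-1.47 ± 0.18) fell. Src and Itgb3, shared with platelets, rose with all libraries (1.30 ± 0.42 and 3.49 ± 1.09), and neither passed without any one library other than Sham 3.

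RANKL, the ligand of Tnfrsf11a, drives osteoclast formation, and osteoprotegerin, the product of Tnfrsf11b, blocks it. Tnfsf11, the RANKL gene, had FPKM of 1.55, 1.35 and 4.20 in OVX 1, 2 and 3 and 2.46, 1.61 and 9.84 in Sham 1, 2 and 3 and did not pass (-0.55 ± 0.58). Tnfrsf11b fell (-5.94 ± 0.45, adjusted p = 0.000101 in limma), with 0.958, 0.581 and 0.351 FPKM in OVX 1, 2 and 3, against 204, 59.3 and 77.3 in Sham 1, 2 and 3. All 3 Sham libraries were high, unlike for Ctsk and Acp5. Cartilage genes fell along with it, and their part in this result was not tested. Of 20 tested genes of this signalling list 3 rose and 9 fell (median -0.68). The Csf1r ligand Il34 (-2.11 ± 0.16) and the receptor Lgr4 (-2.56 ± 0.19), which binds RANKL in mice, fell, and the NF-kB gene Rel rose (0.70 ± 0.15).

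**Figure D4:**
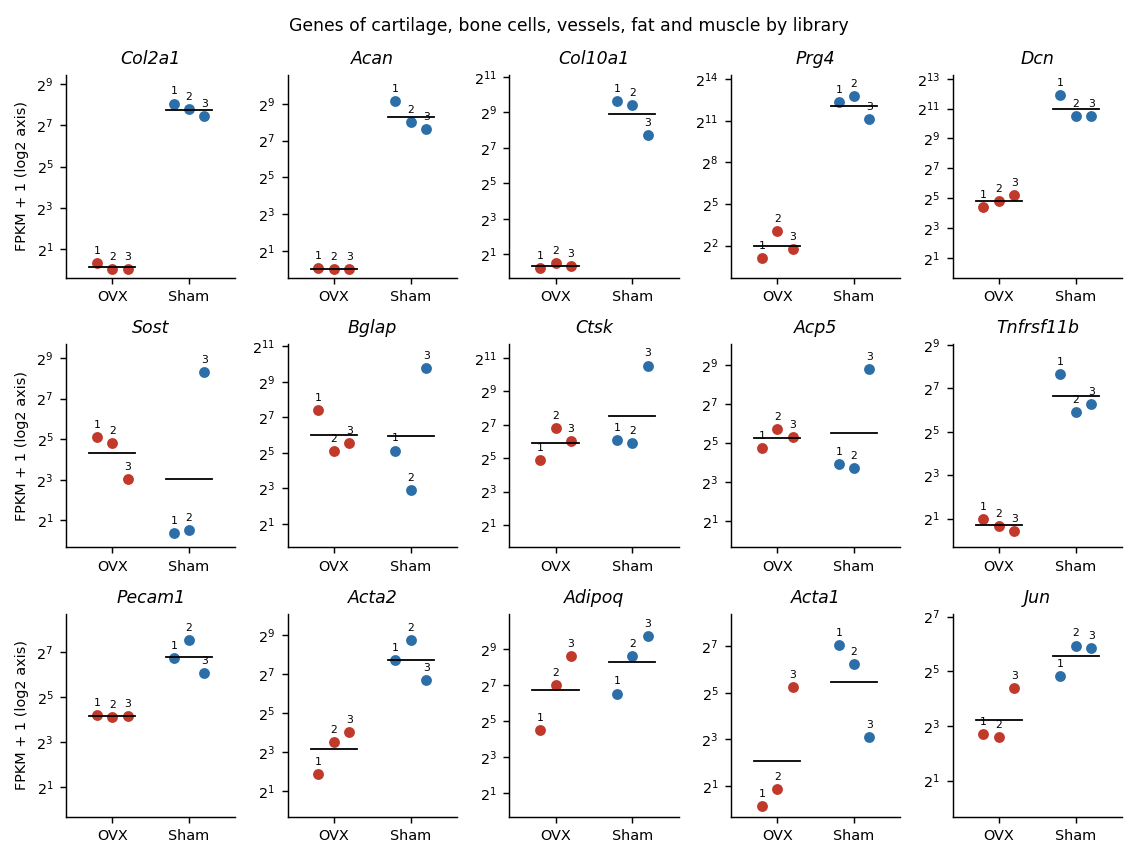
FPKM + 1 of 15 genes on a log2 axis in OVX 1, 2 and 3 (red) and Sham 1, 2 and 3 (blue), with the library number above each point and a bar at the mean of the group on the log scale. Cartilage, matrix and vessel genes and Tnfrsf11b are separated between the groups, while Sost, Bglap, Ctsk and Acp5 are highest in Sham 3, and Adipoq and Acta1 overlap.

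Cartilage genes were near 0 in OVX and high in all 3 Sham libraries. Hyaline cartilage covers joints and forms the growth plate, where chondrocytes divide, enlarge and make collagen X. Col2a1, the main collagen of cartilage, had FPKM of 0.270, 0.0345 and 0.0205 in OVX 1, 2 and 3, against 264, 217 and 173 in Sham 1, 2 and 3 (-7.61 ± 0.18, limma adjusted p = 1.31e-05). Acan, the large proteoglycan, had 0.0354, 0.0269 and 0 in OVX 1, 2 and 3, against 559.7, 259 and 200.1 in Sham 1, 2 and 3 (-8.24 ± 0.36). Col10a1, of enlarging chondrocytes, had 0.178, 0.434 and 0.260 in OVX 1, 2 and 3, against 805, 669 and 209 in Sham 1, 2 and 3 (-8.55 ± 0.49).

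Of 23 tested cartilage genes 22 fell and 1 rose (median -4.70). The summed FPKM of the tested members was 52.5 to 58.9 in OVX libraries and 5540 to 9765 in Sham libraries. The master regulator Sox9 (-3.72 ± 0.32), its partner Sox5 (-2.71 ± 0.18), the link protein Hapln1 (-6.68 ± 0.31) and the growth plate matrix gene Snorc (-5.91 ± 0.32) fell. Sox6, which erythroid cells also express, rose (1.03 ± 0.17). The growth-restraining receptor Fgfr3 (-2.17 ± 0.39) fell, and the parathyroid hormone receptor Pth1r (-2.17 ± 0.58) fell but did not pass without OVX 1 or OVX 2.

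Of 20 tested genes of joint surface, synovium and tendon 18 fell and none rose (median -4.75); 1 rose without Sham 2 or Sham 3. Prg4, the lubricant of joint surfaces, had FPKM of 1.15, 7.36 and 2.36 in OVX 1, 2 and 3, against 5179.9, 6926 and 2207 in Sham 1, 2 and 3 (-10.10 ± 0.61, limma adjusted p = 4.81e-05). The cartilage intermediate layer protein Cilp and the hyaluronan synthase Has1 (-5.06 ± 0.55) fell, as did the tendon transcription factors Scx (-1.15 ± 0.27) and Mkx (-1.22 ± 0.23). Tnmd, tenomodulin, was listed at 0 in the 3 OVX libraries and had FPKM of 1.02, 0.342 and 9.79 in Sham 1, 2 and 3; it did not pass with all libraries but did without Sham 2. The labels do not say how much joint end, growth plate or tendon each femur sample held, so surgery and the part sampled cannot be told apart for these genes.

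Connective tissue matrix was lower in OVX across its families. Of 33 tested collagen genes 28 fell and none rose (median -2.78). Col3a1, of soft connective tissue and vessel walls, had FPKM of 8.91, 14.3 and 24.5 in OVX 1, 2 and 3, against 272, 229 and 162 in Sham 1, 2 and 3 (-3.79 ± 0.37). The basement membrane chains Col4a1 (-2.44 ± 0.44) and Col15a1 (-4.59 ± 0.23), the microfibril chains Col6a1 (-3.45 ± 0.32) and Col6a3 (-3.58 ± 0.23) and Col14a1 (-3.91 ± 0.26) fell. Leaving out Sham 1 gave 1 collagen gene that rose.

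Of 14 tested small leucine-rich proteoglycans, which coat collagen fibrils, 11 fell (median -3.36). Dcn, decorin, had FPKM of 20.5, 26.8 and 35.4 in OVX 1, 2 and 3, against 3846, 1452 and 1461 in Sham 1, 2 and 3 (-6.17 ± 0.42, limma adjusted p = 6.99e-05). Bgn (-2.96 ± 0.17), Aspn (-4.22 ± 0.34), Prelp (-5.37 ± 0.73) and Fmod fell, while Lum did not pass (-1.12 ± 0.69). Of 23 tested genes of elastic fibres and fibronectin matrix 20 fell and none rose (median -2.17; 1 rose without Sham 3), such as Fn1 (-5.50 ± 0.47), Eln (-3.60 ± 0.38) and the TGF-beta binding protein Ltbp4 (-4.05 ± 0.34).

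Among 27 tested matrix proteases and inhibitors 19 fell and 2 rose (median -1.52). The 2 that rose were the neutrophil enzymes Mmp8 (4.93 ± 0.16) and Mmp25 (2.36 ± 0.14). Mmp2 (-3.97 ± 0.20), the membrane-bound Mmp14 (-2.61 ± 0.41), the inhibitors Timp1 (-3.65 ± 0.16) and Timp2 (-2.77 ± 0.21) and the aggrecanase Adamts5 (-2.34 ± 0.34) fell. Mmp3, stromelysin, was listed at 0 in the 3 OVX libraries and had FPKM of 88.0, 151 and 18.9 in Sham 1, 2 and 3. Mmp13, the collagenase of enlarging chondrocytes and osteoblasts, did not pass (-0.23 ± 1.18), with 71.1, 217 and 129 in OVX 1, 2 and 3 and 37.7, 83.9 and 1013 in Sham 1, 2 and 3.

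**Figure D5:**
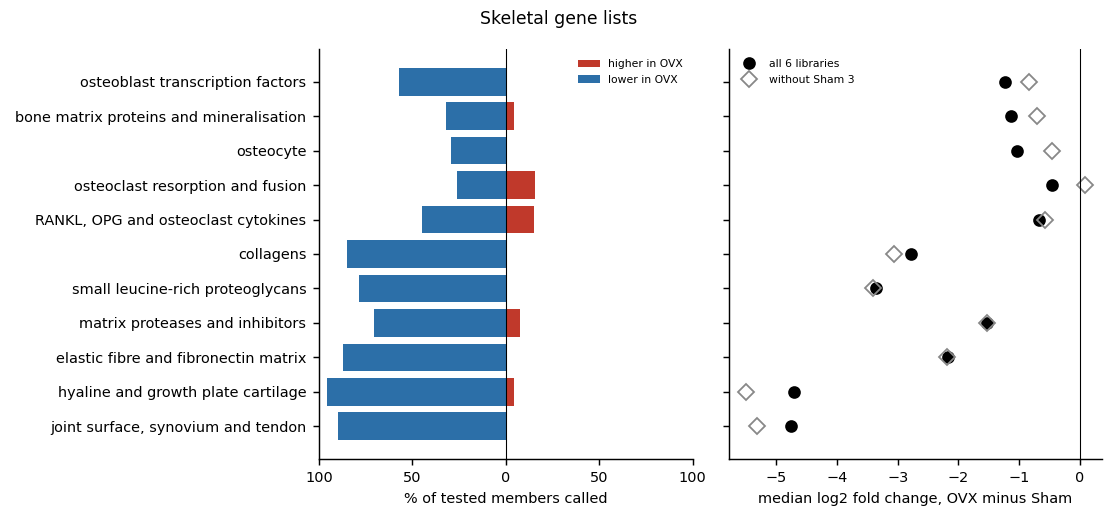
Left, share of tested members of 11 skeletal lists that were higher (red, to the right) or lower (blue, to the left) in OVX in limma; right, median log2 fold change, OVX minus Sham, with all 6 libraries (filled circles) and without Sham 3 (open diamonds). Cartilage, joint and matrix lists are far below 0 either way, and the osteoclast median moves from below to above 0 without Sham 3.

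Genes of growth factor pathways of the skeleton that passed were mostly lower in OVX. Activity of the pathways was not measured. Hedgehog signals from growth plate cells act through the receptor Ptch1, the transducer Smo and the Gli factors. All 13 tested genes of the hedgehog and PTHrP list fell (median -2.35). Gli1, a direct target of the pathway, had FPKM of 0.707, 0.314 and 0.575 in OVX 1, 2 and 3, against 10.2, 15.3 and 14.7 in Sham 1, 2 and 3 (-3.22 ± 0.20). Ptch1 (-2.35 ± 0.27), Smo (-3.39 ± 0.19), Gli2 (-2.91 ± 0.15) and the hedgehog co-receptors Boc (-4.79 ± 0.17) and Cdon (-4.04 ± 0.37) fell. Pthlh, the gene of PTHrP, a ligand of Pth1r and not of the hedgehog receptors, fell too (-1.68 ± 0.33).

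Of 42 tested genes of the BMP and TGF-beta pathways 35 fell and none rose (median -1.71), and 1 rose without Sham 3. Ligands that fell included Bmp5 (-2.60 ± 0.32), Gdf10 (-3.41 ± 0.26) and Tgfb3 (-3.23 ± 0.32). The receptors Bmpr1a (-2.83 ± 0.25), Bmpr2 (-1.79 ± 0.19) and Tgfbr3 (-2.50 ± 0.24), the transducer Smad3 (-1.85 ± 0.13) and the target Id1 (-1.24 ± 0.19) fell. Tgfb1, the form stored in platelets and bone, did not pass (0.34 ± 0.15), with FPKM of 82.6, 84.9 and 74.6 in OVX 1, 2 and 3 and 53.9, 62.5 and 75.8 in Sham 1, 2 and 3; it rose without Sham 3 (0.47).

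Of 35 tested Wnt genes 20 fell and 1 rose (median -1.12); 3 rose without Sham 3. The secreted antagonist Wif1 had FPKM of 5.11, 4.50 and 4.10 in OVX 1, 2 and 3, against 87.8, 106 and 148 in Sham 1, 2 and 3 (-4.34 ± 0.20). Frzb (-6.37 ± 0.19), a cartilage antagonist, the receptors Fzd8 (-2.64 ± 0.20) and Fzd9 (-4.18 ± 0.18), the co-receptors Lrp5 (-1.64 ± 0.15) and Lrp6 (-1.51 ± 0.18), the ligand Wnt16 (-2.17 ± 0.19) and the target Axin2 (-1.08 ± 0.13) fell. Lef1, which B cell precursors also express, was the gene that rose (1.41 ± 0.31). Dkk1, an antagonist of bone, did not pass (-1.03 ± 0.94), with FPKM of 1.66, 0.978 and 0.488 in OVX 1, 2 and 3 and 1.20, 0.503 and 19.0 in Sham 1, 2 and 3.

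In the insulin-like growth factor list 13 of 18 tested genes fell (median -1.59). The ligand Igf1 did not pass (-0.42 ± 0.77), with FPKM of 5.02, 15.7 and 26.9 in OVX 1, 2 and 3 and 6.29, 21.9 and 39.5 in Sham 1, 2 and 3. Igf2 (-2.23 ± 0.35), the binding proteins Igfbp6 (-5.67 ± 0.25) and Igfbp7 (-2.72 ± 0.49) and the receptor Igf1r (-0.94 ± 0.18) fell. Of 22 tested FGF and PDGF genes 18 fell (median -1.70), including the receptors Fgfr1 (-2.82 ± 0.33) and Fgfr2 (-3.25 ± 0.29), Fgf2 (-2.53 ± 0.21), Pdgfa (-2.76 ± 0.18) and the matricellular Ccn2 (-4.73 ± 0.42) and Ccn3 (-5.20 ± 0.35).

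Of 20 tested Notch genes 10 fell and 2 rose, and 0 or 1 rose when any one library other than Sham 3 was left out. The targets Hes1 (-2.69 ± 0.41), Hey1 (-1.91 ± 0.15) and Hey2 (-1.98 ± 0.40), the ligands Jag1 (-2.37 ± 0.27), Jag2 (-2.28 ± 0.22) and Dll4 (-1.72 ± 0.25) and the vascular receptors Notch3 (-2.44 ± 0.33) and Notch4 (-1.79 ± 0.24) fell. Notch1 (-0.26 ± 0.17) and Notch2 (-0.15 ± 0.18), which many cells express, did not pass.

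Genes of estrogen action that passed were mostly lower in OVX. Esr1, the main estrogen receptor gene, had FPKM of 0.133, 0.303 and 0.638 in OVX 1, 2 and 3 and 0.257, 0.399 and 2.00 in Sham 1, 2 and 3, a mean under 1, and was not tested. Esr2, Pgr, Greb1 and Cyp19a1 were also under this mean. Of 23 tested genes of estrogen receptors, cofactors and responsive genes 13 fell and 1 rose (median -0.70), and 2 rose without Sham 2. The membrane receptor Gper1 had 0.298, 0.588 and 0.725 in OVX 1, 2 and 3, against 2.48, 3.14 and 3.08 in Sham 1, 2 and 3 (-1.35 ± 0.18). The responsive genes Ccnd1 (-2.41 ± 0.15), Bcl2 (-1.69 ± 0.21) and Igfbp4 (-1.63 ± 0.36) and the coactivator Ncoa3 (-1.18 ± 0.16) fell. The related coactivator Ncoa1 did not pass (-0.38 ± 0.19). These genes respond to many other signals.

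Fat genes varied within the groups. Marrow fat expands after ovariectomy in many reports. Of 25 tested adipocyte genes 1 fell and none rose (median -0.64). Adipoq, the adipocyte hormone, had FPKM of 22.1, 130.2 and 398 in OVX 1, 2 and 3 and 92.4, 393 and 853 in Sham 1, 2 and 3 and did not pass (-1.57 ± 1.20). Pparg, the master regulator of fat cells, had 5.75, 7.61 and 14.6 in OVX 1, 2 and 3 and 8.07, 18.5 and 26.3 in Sham 1, 2 and 3 and did not pass (-0.81 ± 0.47), but fell without Sham 1 (-1.25). OVX 1 was the lowest of the 6 libraries in both, and Sham 3 the highest. Without OVX 3, the highest OVX library in both, 6 adipocyte genes fell; without Sham 1, 2 fell; without Sham 3, 2 rose and 1 fell. The gene that fell with all libraries was Acacb, an acetyl-CoA carboxylase (-1.05 ± 0.25).

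Of 27 tested genes of cholesterol and fatty acid synthesis 7 rose and 5 fell (median 0.15), beside 27.3% of all tested genes higher and 30.1% lower. When a single library other than OVX 3 was left out, 2 or 3 fell. The desaturase Fads2 (2.12 ± 0.32) and the isoprenoid enzyme Idi1 (1.04 ± 0.16) rose, and Lss (-1.24 ± 0.23) and Msmo1 (-0.61 ± 0.14) fell. Scd, the desaturase of fat cells, did not pass (-2.08 ± 1.46), with 3.17, 128 and 140.4 in OVX 1, 2 and 3 and 59.5, 303 and 312 in Sham 1, 2 and 3.

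Vessel genes were lower in OVX. Of 25 tested endothelial genes 22 fell and 1 rose (median -2.56). Pecam1, a junction protein of endothelium, had FPKM of 17.3, 16.2 and 16.8 in OVX 1, 2 and 3, against 104, 183 and 66.5 in Sham 1, 2 and 3 (-2.62 ± 0.34, limma adjusted p = 0.000877). Cdh5 (-2.75 ± 0.31), Emcn (-2.84 ± 0.32) of marrow sinusoids and type H vessels, and Plvap (-3.50 ± 0.27) fell. The growth factor receptor Kdr fell too (-1.36 ± 0.38), but did not pass without OVX 1, OVX 2 or Sham 2. The sinusoidal gene Stab2 did not pass (-0.23 ± 0.47). Vwf, shared with platelets, was the gene that rose (1.13 ± 0.30); it did not pass without OVX 1. Of 15 tested pericyte and smooth muscle genes 14 fell (median -2.56). Acta2, smooth muscle actin, had 2.72, 10.6 and 15.7 in OVX 1, 2 and 3, against 209.8, 438 and 103 in Sham 1, 2 and 3 (-4.57 ± 0.70), with OVX 1 the lowest of all.

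Skeletal muscle RNA was present in some libraries of each group. Acta1, the actin of skeletal muscle, had FPKM of 0.102, 0.804 and 37.4 in OVX 1, 2 and 3 and 132, 75.6 and 7.53 in Sham 1, 2 and 3 and did not pass (-3.38 ± 1.58). OVX 3 and Sham 1 and 2 were high, and OVX 1 and 2 were low; Acta1 fell without OVX 3 (-4.97) or Sham 3 (-4.57). Of 14 tested fast muscle genes 2 fell, but 13 fell without Sham 3 and 7 without OVX 3, against 1 without any one of the other libraries. The summed FPKM of the tested fast muscle genes was 22.7 to 129.9 in OVX libraries and 48.7 to 454.8 in Sham libraries. Of 6 tested slow muscle genes the troponins Tnnc1 (2.37 ± 0.22) and Tnnt1 (1.42 ± 0.45) rose, Tnnt1 not without Sham 1, Sham 2 or Sham 3 and by 0.92 without OVX 3, and 2 fell, 1 of them not without OVX 1. The myelin gene Pmp22 fell (-3.44 ± 0.43); of 8 tested nerve genes 5 fell and 1 rose, and 2 rose without Sham 2.

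The respiratory chain is encoded partly in the nucleus and partly in the mitochondrion. Of 38 tested entries of the nuclear respiratory chain 19 rose and none fell (median 0.44), and 25 rose and 1 fell without Sham 3. Cox5a had FPKM of 52.9, 47.6 and 50.4 in OVX 1, 2 and 3, against 11.7, 17.0 and 20.2 in Sham 1, 2 and 3 (1.60 ± 0.19), and Atp5f1b rose by 1.02 ± 0.20. Of 13 genes of the mitochondrial genome 3 fell and none rose (median -0.68), beside 30.1% of all tested genes lower and 27.3% higher. Mt-co1 did not pass (-0.38 ± 0.43), with FPKM of 14069, 13271 and 14595 in OVX 1, 2 and 3 and 21415, 20214 and 13932 in Sham 1, 2 and 3, so that Sham 3 was inside the OVX range. Without Sham 3, 9 mitochondrial genes fell, and without any one of OVX 1, OVX 2, Sham 1 or Sham 2 only 1 did. Of 55 tested entries of ribosomal protein genes 16 rose and none fell (median 0.35). The share that rose is near the 27.3% of all tested genes that were higher. Without Sham 3, 26 ribosomal entries rose, against 6 without Sham 1 or Sham 2 and 4 without OVX 1 or OVX 3. Ribosomal protein genes have many near-identical copies.

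Glycolysis and hypoxia genes moved in both directions, as did all tested genes (27.3% higher and 30.1% lower). Of 33 tested genes 16 fell and 5 rose (median -0.71). The hypoxia targets P4ha1 (-3.17 ± 0.20), P4ha2 (-4.29 ± 0.34), Ndrg1 (-2.42 ± 0.17) and Aldoc (-2.99 ± 0.23) and the hypoxia factors Hif1a (-1.35 ± 0.18) and Epas1 (-2.89 ± 0.32) fell. The prolyl 4-hydroxylases P4ha1 and P4ha2 also modify collagen. The glucose transporter Slc2a3, known from platelets and white cells (1.87 ± 0.23), Hk1 (1.33 ± 0.09) and the mitophagy receptor Bnip3l of maturing red cells (1.77 ± 0.16) rose. Vegfa fell (-2.50 ± 0.59), with FPKM of 10.9, 13.0 and 52.3 in OVX 1, 2 and 3, against 172, 107 and 85.7 in Sham 1, 2 and 3.

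Antioxidant genes moved in both directions, as did all tested genes (27.3% higher and 30.1% lower). Of 29 tested genes 14 rose and 9 fell (median 0.34), and 5 fell without OVX 1. Prdx2, an abundant peroxidase of red cells, had FPKM of 805, 755 and 624 in OVX 1, 2 and 3, against 72.2, 69.9 and 92.3 in Sham 1, 2 and 3 (3.21 ± 0.17). Gpx1 (2.36 ± 0.19), Gclm (2.75 ± 0.16) and Cat (1.24 ± 0.15) rose. The secreted enzymes Sod3 (-5.59 ± 0.65) and Gpx3 (-3.44 ± 0.54) fell, and the NRF2 target Txnrd1 did not pass (-0.17 ± 0.16).

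Immediate early genes, which respond to tissue handling as well as to signals, were lower in OVX where they passed. Of 23 tested immediate early genes 11 fell and none rose (median -1.52), and 1 rose without Sham 2. Jun had FPKM of 5.53, 5.05 and 20.03 in OVX 1, 2 and 3, against 27.7, 60.6 and 56.8 in Sham 1, 2 and 3 (-2.31 ± 0.54). Klf4 (-3.46 ± 0.20), Klf2 (-1.32 ± 0.16) and Egr2 (-1.83 ± 0.30) fell, and Fos (-2.19 ± 0.89) and Egr1 (-1.84 ± 1.03) did not pass; Fos fell without Sham 1 (-3.18) and Egr1 without OVX 3 (-2.74). Of 18 tested heat shock genes 4 rose and 8 fell: Hspd1 (1.00 ± 0.22) and Hsp90aa1 (1.12 ± 0.21) rose, and the small heat shock proteins Hspb1 (-4.01 ± 0.26) and Hspb8 (-4.22 ± 0.42) fell.

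Genes of lysosomes, autophagy and cell death moved in both directions, as did all tested genes (27.3% higher and 30.1% lower). The autophagy and cell death counts below are near these shares. Of 35 tested lysosome and proton pump genes 13 fell and 3 rose (median -0.36), with 7 that rose without Sham 3 and 1 without OVX 1, OVX 2, OVX 3 or Sham 1. The proteases Ctsl (-3.24 ± 0.28) and Ctss (-1.72 ± 0.24) fell. Of 20 tested autophagy genes 7 rose and 6 fell, with Gabarapl2 at 1.03 ± 0.16 and Gabarapl1 at -2.08 ± 0.18. Of 21 tested genes of the BCL2 family and p53 targets 7 rose and 5 fell: Bcl2l1, the survival gene of red cell precursors, rose (1.44 ± 0.16), while Bcl2 and the cell cycle inhibitor Cdkn1a (-2.51 ± 0.45) fell. Of 9 tested genes of senescence and its secreted factors 2 rose and 5 fell, and 3 fell without OVX 1 or OVX 2. Lmnb1, a lamin that is lost in senescent cells and is abundant in dividing ones, rose (3.33 ± 0.27).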

How the data were processed

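Polyadenylated RNA of rat femur was sequenced from libraries made with a TruSeq kit, per the labels. The authors deposited 1 table per library with a value per gene in a column whose name says count; the values are not whole and the file titles call them FPKM. The submitters' processing notes list fastp 0.23.4, STAR 2.7.11a, featureCounts 2.0.6 and the build mRatBN7.2. Depth was inferred from the smallest steps of the deposited FPKM values, which came out as whole reads, within 0.25 read at most, for 24014 of 24207 genes above 0 and made up 99.7% to 99.9% of the inferred total per library; 59.2% of the low counts were even, so both ends of a fragment may have been counted. The 14263 of 30454 genes that averaged 1 FPKM or more over the 6 libraries were tested on log2(FPKM + 1). The test was limma 3.58.1 (trend, R 4.3.3, Benjamini-Hochberg adjustment, threshold 0.05, 4 residual degrees of freedom). This procedure was tried on simulated data with independent noise and far fewer changed genes than passed here. That trial does not measure its errors in these data. The members and gene lists were chosen with earlier results of these data known. Named genes include the 15 highest and 15 lowest fold changes. These were taken among genes with a symbol that passed, at a mean FPKM of at least 10 without overlap. Also named are up to 6 members per list with the smallest p, a fixed set of cell markers, and list members described with their list. Promoters are from RefSeq (GRCr8), whose build differs from that of the files. Surgery groups follow the labels; no batch is given, and the 9 libraries of treated rats entered only an alternative fit. Some genes of the lists are counted in them but not reported here by name.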

Additional observations from a re-analysis of the deposited data

How the results depend on the processing

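Over all tested genes, 3211 to 4245 genes were higher and 3689 to 4149 lower in OVX when single libraries were left out, against 3895 and 4298 with all 6. Raising the minimum mean FPKM to 5 left 10066 tested genes, of which 3194 were higher and 2836 lower in OVX, so that more were higher; the smaller number tested is part of that drop. The balance also moved with scaling: 3421 were higher and 4817 lower in TPM, 3495 and 4861 without mitochondrial and globin genes, and 4187 and 4176 with median-ratio scaling. Without a filter 4895 of 22789 genes were lower, and with array weights 4869 of 14263 were. Deviations from the group means of same-numbered OVX and Sham libraries correlated at 0.10, 0.03 and -0.11. OVX 1 correlated best with Sham 1, OVX 2 with Sham 3 and OVX 3 with Sham 2. With 3 libraries a group these values are tied to each other, so they cannot show whether replicate numbers pair the libraries. A fit with the replicate number as a block called 3581 genes higher and 4127 lower. The count test limma voom on reads recovered from the FPKM, chosen after seeing the data, called 3862 higher and 4322 lower. Of 277 genes named in the text that passed, 265 passed under each of the 16 alternatives that tested them. Many of these genes were named for their fold change or small p in the main fit, so this count does not measure how stable the calls are. Acp5 had a fold change of -0.24 with all libraries, not passed, and from -1.12 without Sham 2 to 1.42 without Sham 3, where it passed. Replicate number as a block gave 17 immediate early genes lower in place of 11, and 6 adipocyte genes in place of 1. With 3 libraries a group, whether Sham 3 or Sham 1 and 2 are typical of the group could not be told apart.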
